A study of Rattus norvegicus with 15 samples.

Results

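The enzymes of phase II conjugation were followed in the intestine of male rats after Roux-en-Y gastric bypass (RYGB), an operation that leads food from an upper stomach pouch straight into a limb of jejunum, the Roux limb (RL). Members were taken by name: every named probe of the array whose gene symbol begins with Ugt1, Ugt2, Gsta, Gstk, Gstm, Gsto, Gstp, Gstt or Mgst, or with Sult and a digit. This rule uses no measured value and found 58 probes of 48 genes among 17337 named genes on the array, and each gene was read on its brightest tested probe. The 48 genes are 4 of the Ugt1 family, 9 of the Ugt2 family, 19 cytosolic and mitochondrial glutathione transferases, 3 membrane glutathione transferases and 13 sulfotransferases. Symbols are those of the array files. RefSeq now calls 6 of them by another name: Ugt2b36 is Ugt2b35, Ugt2b34 is Ugt2b10, Ugt2b5 is Ugt2b15, Gsta3 is Gsta1, Gsta5 is Gsta3, and Sult2al1 is Sult2a6.

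Total RNA from 1 intestinal segment per rat was hybridised in 1 colour, 1 array per rat, 5 rats per group. GK-S-30 rats were Goto-Kakizaki (GK) rats, a nonobese strain with spontaneous diabetes, that had received RYGB with a 30 cm RL at an age of 16 wk, and their segment came from the RL. GK-Sham-PF rats were GK rats in which, also at an age of 16 wk, the jejunum was cut open and rejoined without rearrangement. They were pair-fed to whichever RYGB group of the study ate least. This was usually a group with a shorter RL, which is not on these arrays, so intake was not matched directly to GK-S-30 rats. Wistar rats were age-matched, nondiabetic and unoperated, and in both control groups the segment was the matching stretch of jejunum. All GK rats were sampled 14 wk after the operation and every rat had been fasted overnight. GK-Sham-PF and Wistar rats differ in strain, operation and feeding at once, and these cannot be told apart here.

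Phase II enzymes couple a small polar group to drugs, dietary chemicals, bilirubin, steroids and other lipids, so that the product dissolves in water and can be exported. UDP-glucuronosyltransferases (UGTs) sit in the membrane of the endoplasmic reticulum and transfer glucuronic acid. Glutathione transferases (GSTs) add glutathione to electrophiles or reduce peroxides with it, and sulfotransferases (SULTs) transfer sulfate. The small intestine is, beside the liver, a main site of all these reactions, and in enterocytes they limit how much of an ingested compound reaches the portal blood.

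Of the 48 members, 38 were tested, because in 1 or more groups all 5 arrays read their probe well above background, and 32 of these were well above background on all 15 arrays. The 10 members that were not tested include 7 that were above background on no array, namely Gstt4, Sult1c3, Sult1d1, Sult1e1, Sult2al1, Ugt1a9-ps and Ugt2b, and 3 that were above background on 1 or 2 arrays. Array brightness was similar (upper quartile of the processed signal 302 to 357) except for Wistar replicate 3 and GK-Sham-PF replicate 5, at 207 and 208. Arrays were printed on 4 slides, and no slide held both GK-S-30 and Wistar arrays, so a fit with slide as a block compares these groups only through the GK-Sham-PF arrays. Slide B held 3 GK-Sham-PF arrays with 1 Wistar array and slide C held 2 GK-S-30 arrays with 2 GK-Sham-PF arrays, and differences within these slides are given beside the results.

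The segments carried the markers of intestinal epithelium. Of 15 listed epithelial genes 13 were tested, and their summed signal ranged from 1424430 to 1646900 in Wistar, from 1323690 to 1550060 in GK-Sham-PF and from 1362130 to 1523600 in GK-S-30 rats. Sums are of unlogged signals, so the brightest genes weigh most in them. Of the 13, none changed between GK-Sham-PF and Wistar rats, and Krt18 alone, which encodes an epithelial keratin, changed between the GK groups, by 0.29 (SE 0.08, adjusted p = 0.0377) on the log2 scale. In GK-S-30 against Wistar rats 2 of the 13 were called, Krt18 higher by 0.32 (SE 0.08, adjusted p = 0.011) and Fabp2, an intestinal fatty acid binding protein, lower by -0.28 (SE 0.07, adjusted p = 0.0133). The brush border markers Sis and Mgam were not analysed here. Smooth muscle genes behaved otherwise: their summed signal over 8 tested genes was 27157 to 47686 in Wistar, 24943 to 52949 in GK-Sham-PF and 86982 to 113209 in GK-S-30 rats, and 4 of the 8 (Actg2, Cnn1, Des and Tagln) were higher after RYGB than after sham operation. For Actg2, the enteric smooth muscle actin, the log2 fold change was 2.35 (SE 0.24, adjusted p = 5.96e-05). The part of this shift in the differences of GK-S-30 rats described here was not tested. In a bulk sample, fewer cells of a type and less RNA per cell cannot be told apart.

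Between GK-Sham-PF and Wistar rats, 15 of the 38 tested members differed (39.5%), 14 lower and 1 higher in GK-Sham-PF rats, where 8.83% of all 13024 tested genes were called, 4.63% lower and 4.20% higher. Between the GK groups 10 members differed (26.3%), 8 lower and 2 higher in GK-S-30 rats, with 9.65% of all genes called, 4.49% lower and 5.16% higher. Differences between the GK groups are given as GK-S-30 minus GK-Sham-PF throughout. Between GK-S-30 and Wistar rats 18 members differed (47.4%), 17 lower and 1 higher, with 26.2% of all genes called, 13.8% lower and 12.4% higher. A gene was called at an adjusted p under 0.05 (limma, Benjamini-Hochberg over all tested genes). The median log2 fold change of the 38 members was -0.33, -0.06 and -0.60 in these comparisons, and that of all genes 0.01, -0.03 and -0.02. The 3 comparisons share arrays, so they are not independent of each other.

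The larger differences lay mostly in the Ugt2 family: 10 of the 15 members called between GK-Sham-PF and Wistar rats differed by at least 2-fold, and 6 of these 10 were Ugt2 genes. Over all genes, 2.49% were called with at least that size. Between the GK groups 3 members and between GK-S-30 and Wistar rats 8 members were called with at least 2-fold, against 2.22% and 5.51% of all genes. Arrays did not overlap for 14 members in GK-Sham-PF against Wistar rats, for 4 between the GK groups and for 14 in GK-S-30 against Wistar rats, where the shares over all genes were 9.69%, 9.00% and 19.5%. With slide as a fixed block, which rests on the few arrays that share a slide, 5, 2 and 4 members were called in the 3 comparisons, among them Ugt2b5 in each and Ugt2b36, Ugt2b37 and Ugt2b34 in both comparisons with Wistar rats. All 15 and all 10 members called between groups that share a slide had the same direction within that slide. The arrays of these slides are among those that gave the calls, so this is not a separate test.

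**Figure D1:**
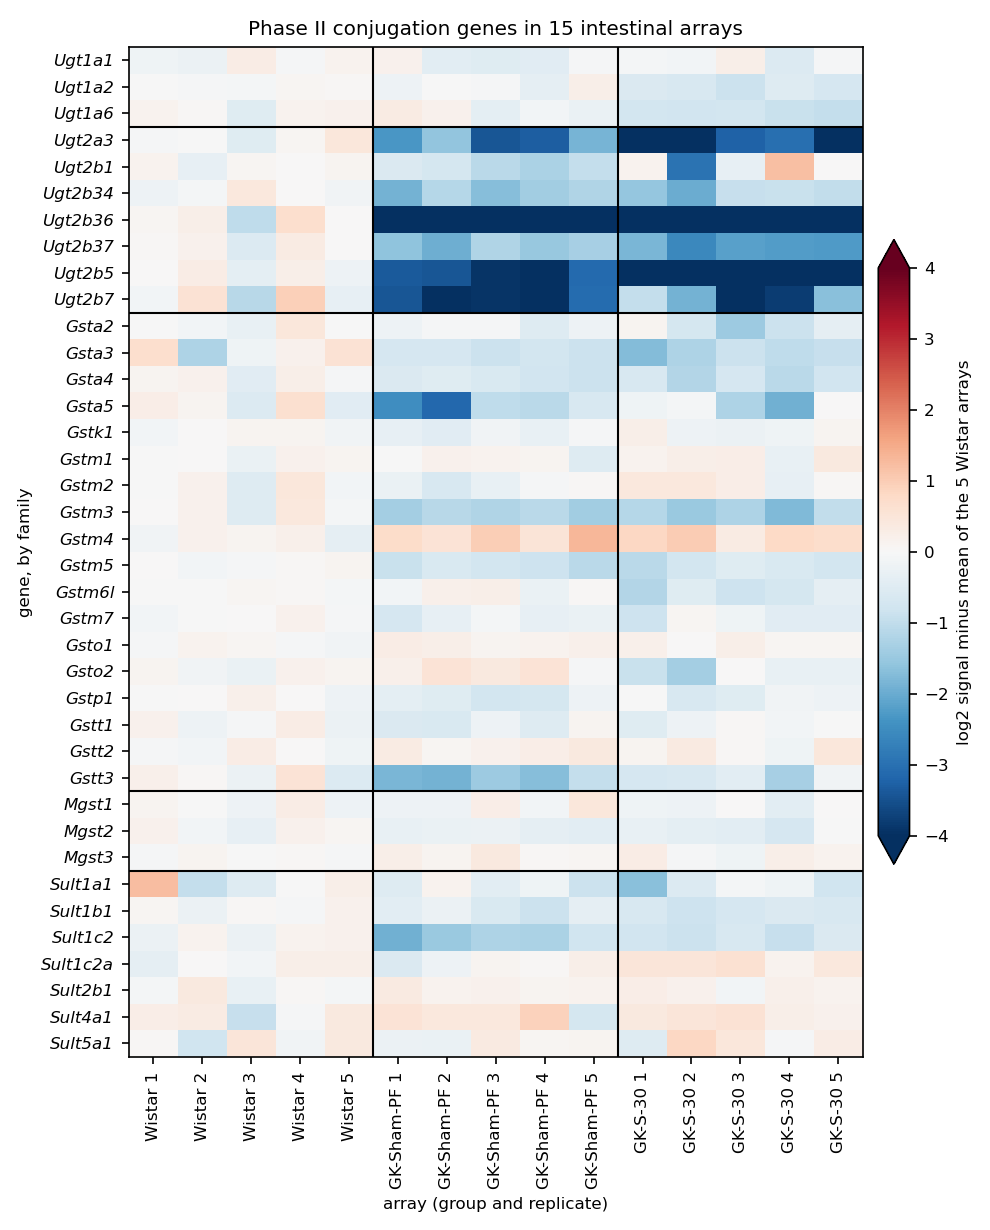
Signal of the 38 tested phase II genes (rows, by family) on the 15 arrays (columns), coloured by log2 signal minus the mean of the 5 Wistar arrays, with colours saturated beyond 4 on either side. Blue is below and red above that mean. Most of the Ugt2 family, led by Ugt2b36 and Ugt2b5, was blue on all 10 GK arrays, while most GST and SULT rows stayed near the Wistar level.

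**Figure D2:**
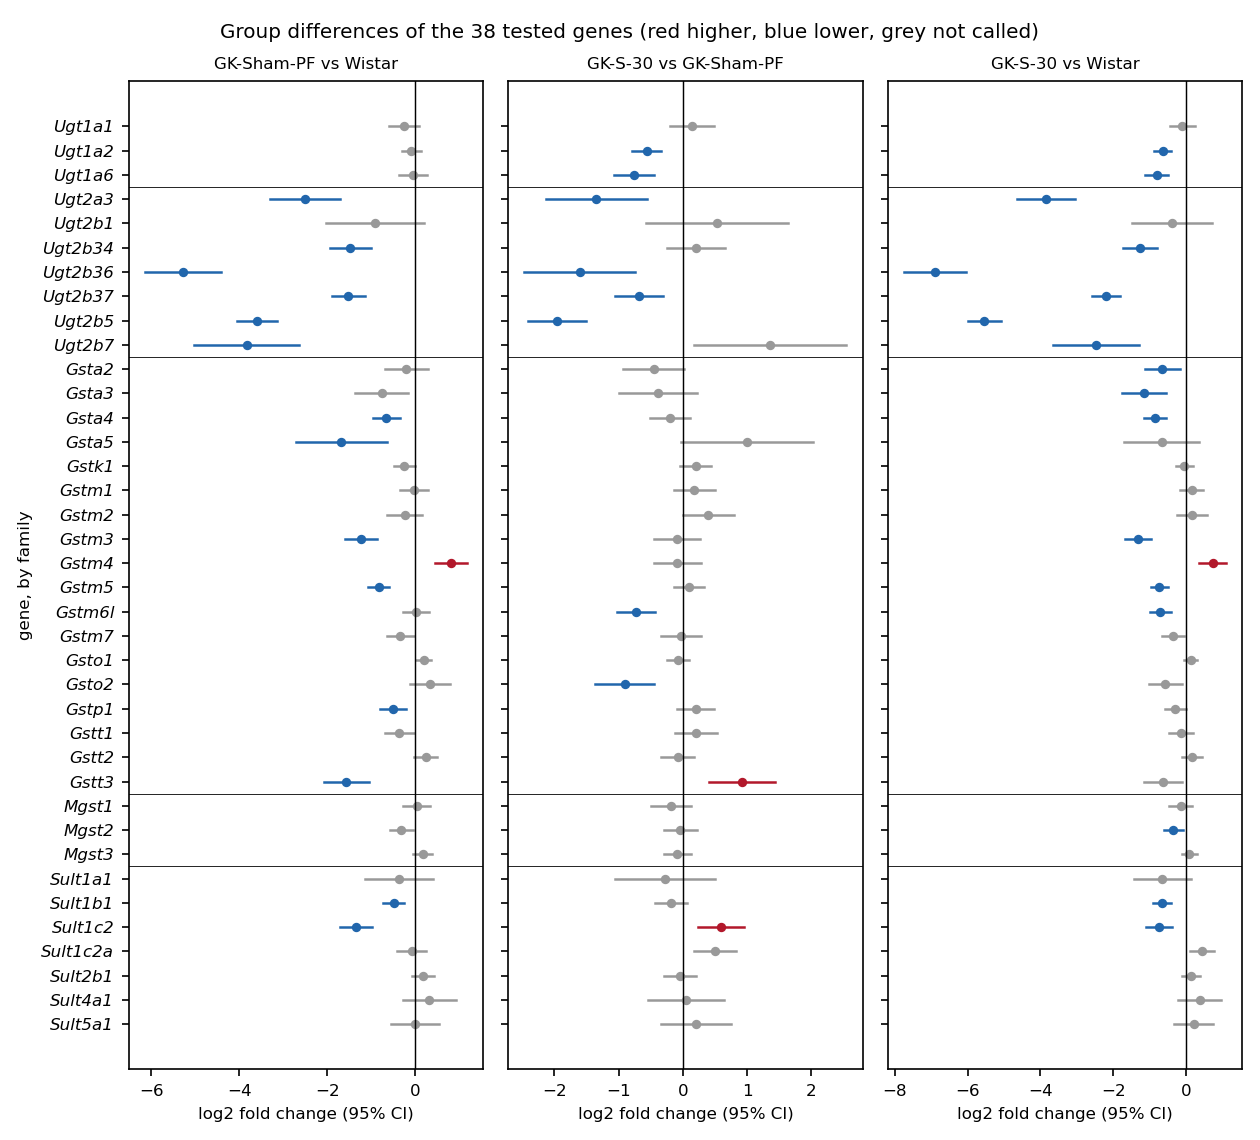
Log2 fold change of each tested gene with its 95% confidence interval in the 3 comparisons, with blue for genes called lower, red for genes called higher and grey for the rest; the horizontal scales differ between panels. GK-Sham-PF against Wistar has 14 blue points and 1 red point, the GK groups have 8 and 2, and GK-S-30 against Wistar has 17 and 1.

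The Ugt2 genes form a cluster on chromosome 14, whose probes lie between 21949856 and 22743283 in build rn4 together with 3 sulfotransferase genes. Ugt2 enzymes conjugate steroid hormones, bile acids, fatty acids and many drugs. Since their transcripts resemble each other, the 60-base probes of 4 genes that were lower in both GK groups than in Wistar rats and the most similar pair of probes are printed here 5′ to 3′, each on the plus strand at the position given by the array annotation (rn4). Each of these probes has a sense frame without a stop codon.

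Ugt2b36, chr14:22478931-22480029, a span longer than the probe and so interrupted in the genome: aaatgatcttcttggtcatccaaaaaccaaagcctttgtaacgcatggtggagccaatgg
Ugt2b5, chr14:22348631-22348690: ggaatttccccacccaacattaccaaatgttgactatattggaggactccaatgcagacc
Ugt2a3, chr14:22099965-22100024: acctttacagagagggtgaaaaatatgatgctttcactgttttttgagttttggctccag
Ugt2b34, chr14:22743224-22743283: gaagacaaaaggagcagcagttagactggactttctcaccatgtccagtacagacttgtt
Ugt2b37, second probe, chr14:22420991-22421050: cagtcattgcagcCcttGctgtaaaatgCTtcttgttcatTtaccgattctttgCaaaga
Ugt2b, chr14:22177425-22177484: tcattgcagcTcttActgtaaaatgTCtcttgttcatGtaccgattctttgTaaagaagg

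Capitals mark the 6 bases at which the last pair differs over 57 aligned bases. It is the only pair of probes of different members with at least 80% identity over 40 or more bases, and the Ugt2b probe was above background on no array.

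Of 7 tested Ugt2 genes, 6 were lower in GK-Sham-PF than in Wistar rats, 6 were lower in GK-S-30 rats relative to Wistar rats and 4 were lower between the GK groups, in GK-S-30 rats. The median of the 7 log2 fold changes was -2.50, -2.47 and -0.69 in that order. Ugt2b36, Ugt2b5, Ugt2a3 and Ugt2b37, 4 genes, were lower in all 3 comparisons, as were 58 of all 13024 genes (0.445%). Of these genes, Ugt2a3 passed the filter on dim probes only through the Wistar arrays, which favours a lower value in GK rats. With Sult1c2, described further on, 5 members were called in all 3 comparisons, as were 0.983% of all genes. Every tested Ugt2 gene except Ugt2b37 was read on a single probe, so the size of its difference could not be compared between probes. Whether GK and Wistar rats differ in sequence under any of these probes was not tested. Levels are log2 normalised signals, listed for replicates 1 to 5 of each group, and a difference of 1 is a 2-fold change.

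Ugt2b36 had the largest range of any member on the brightest probes. Its log2 signals were 11.15, 11.31, 10.06, 11.73 and 11.07 in the Wistar rats, 6.01, 5.78, 5.67, 4.96 and 6.49 in the GK-Sham-PF rats and 5.50, 4.36, 3.15, 3.57 and 4.29 in the GK-S-30 rats. The Wistar arrays stood clear of all GK arrays, and the lowest GK-Sham-PF array lay within the GK-S-30 range, where 1 array, replicate 3, was not well above background. GK-Sham-PF rats differed from Wistar rats by -5.28 (SE 0.40, adjusted p = 3.01e-07), or 38.9-fold, and by -5.33 within slide B. GK-S-30 rats were lower again than GK-Sham-PF rats, by -1.61 (SE 0.40, adjusted p = 0.0211), and by -0.80 within slide C. The difference between GK-S-30 and Wistar rats, -6.89 (SE 0.40, adjusted p = 1.15e-08), was the largest fall among the 13024 tested genes.

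Ugt2b5, another enzyme of the 2B subfamily, gave 3 separate levels. It read 9.29, 9.56, 8.88, 9.50 and 9.05 in the Wistar rats, 5.89, 5.83, 5.35, 5.16 and 6.14 in the GK-Sham-PF rats and 4.13, 4.10, 3.41, 3.58 and 3.33 in the GK-S-30 rats. No group overlapped another, although in GK-S-30 rats the probe was well above background on 2 of 5 arrays only, so the lowest level is near the limit of detection. The log2 fold change was -3.58 (SE 0.21, adjusted p = 1.76e-08) between GK-Sham-PF and Wistar rats and -1.96 (SE 0.21, adjusted p = 8.51e-05) between the GK groups. The differences within slides B and C were -3.60 and -1.53. GK-S-30 rats stood 46.8-fold below Wistar rats, a log2 fold change of -5.55 (SE 0.21, adjusted p = 1.18e-10).

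Ugt2a3, an isoform found in intestine and liver, was read near background in GK rats. It read 6.19, 6.23, 5.76, 6.31 and 6.68 in the Wistar rats, 3.90, 4.65, 2.80, 2.92 and 4.37 in the GK-Sham-PF rats and 2.11, 1.87, 3.00, 3.21 and 1.72 in the GK-S-30 rats. The probe was well above background on all Wistar arrays, on 3 of 5 GK-Sham-PF arrays and on no GK-S-30 array, so only a bound can be given for the last group. Against the background level of each array, GK-S-30 rats were at least 6.6-fold below Wistar rats. The same calculation gave 1.16-fold against GK-Sham-PF rats, which is no strict bound because not all of their arrays were above background. The limma calls (adjusted p = 3.05e-06 and 0.0334) rest on the values as read and do not test these bounds. GK-Sham-PF rats differed from Wistar rats by -2.50 (SE 0.37, adjusted p = 0.000362), with no overlap of arrays, and by -2.41 within slide B.

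Ugt2b37 is read by a pair of probes that gave very unequal differences in the same direction. They are ranked by mean signal over all arrays, while in Wistar rats alone the second probe had the higher mean, 10.76 against 8.03. The brighter probe (rn4 chr14:22422764-22422822) lies downstream of the second along the plus strand and has no sense frame without a stop codon. On it, log2 signals were 8.08, 8.19, 7.48, 8.36 and 8.04 in the Wistar rats, 6.43, 6.09, 6.84, 6.50 and 6.69 in the GK-Sham-PF rats and 6.21, 5.46, 5.87, 5.81 and 5.77 in the GK-S-30 rats. Wistar arrays were clear of the others, and GK-S-30 replicate 1 lay above the lowest GK-Sham-PF array. The differences were -1.52 (SE 0.18, adjusted p = 3.42e-05) for GK-Sham-PF against Wistar, -0.69 (SE 0.18, adjusted p = 0.0243) between the GK groups and -2.21 (SE 0.18, adjusted p = 4.49e-07) for GK-S-30 against Wistar rats. Within slides B and C they were -1.63 and -0.76.

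The second Ugt2b37 probe, printed above, read 10.75, 10.96, 10.51, 11.01 and 10.56 in the Wistar rats but 3.89, 3.93, 4.19, 3.00 and 3.89 in the GK-Sham-PF rats and 3.27, 2.10, 1.95, 1.66 and 1.96 in the GK-S-30 rats. It was well above background on all Wistar arrays, on 2 GK-Sham-PF arrays and on no GK-S-30 array. Its difference between GK-Sham-PF and Wistar rats was -6.98 (SE 0.27, adjusted p = 9.72e-11), against -1.52 on the brighter probe, and GK-S-30 rats were at least 152-fold below Wistar rats. Whether GK and Wistar rats differ in sequence under either probe was not tested.

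Ugt2b7 and Ugt2b34 were lower than Wistar in both GK groups and were not called between the GK groups. For Ugt2b7, log2 signals were 9.85, 10.55, 8.86, 10.93 and 9.64 in the Wistar rats, 6.54, 5.81, 6.06, 5.38 and 6.90 in the GK-Sham-PF rats and 9.02, 8.07, 5.95, 6.16 and 8.29 in the GK-S-30 rats. In the GK-S-30 rats replicates 1, 2 and 5 lay above every GK-Sham-PF array, replicate 1 within the Wistar range, while replicates 3 and 4 lay among the GK-Sham-PF arrays. Ugt2b7 differed by -3.83 (SE 0.56, adjusted p = 0.000292) between GK-Sham-PF and Wistar rats, with -3.72 within slide B. The difference of 1.36 (SE 0.56, adjusted p = 0.147) between the GK groups did not pass, and its 95% confidence interval ran from 0.18 to 2.55. Within slide C, with 2 arrays of each GK group, it was 2.41. Against Wistar rats, GK-S-30 rats remained lower, by -2.47 (SE 0.56, adjusted p = 0.00435).

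For Ugt2b34, log2 signals were 10.90, 11.01, 11.53, 11.11 and 10.97 in the Wistar rats, 9.21, 9.96, 9.41, 9.71 and 9.89 in the GK-Sham-PF rats and 9.55, 9.12, 10.18, 10.22 and 10.12 in the GK-S-30 rats. All GK arrays lay below all Wistar arrays and the GK groups overlapped. The differences from Wistar rats were -1.47 (SE 0.21, adjusted p = 0.000305) in GK-Sham-PF and -1.27 (SE 0.21, adjusted p = 0.000536) in GK-S-30 rats. Between the GK groups the difference was 0.20 (SE 0.21, adjusted p = 0.627), with a 95% confidence interval of -0.25 to 0.66. Within slide B GK-Sham-PF and Wistar rats differed by -1.37. Within slide C the GK groups differed by -0.46, opposite in sign to the value over all arrays.

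Ugt2b1, the remaining tested gene of the family, was close to background and was called in no comparison. Its signals were 4.26, 3.80, 4.22, 4.13 and 4.23 in the Wistar rats, 3.54, 3.42, 3.05, 2.87 and 3.17 in the GK-Sham-PF rats and 4.25, 1.16, 3.81, 5.32 and 4.14 in the GK-S-30 rats. All 5 GK-Sham-PF arrays lay below the Wistar arrays, 1 of them well above background, yet the difference of -0.91 (SE 0.52, adjusted p = 0.353) did not pass, and GK-S-30 arrays ranged widely around the Wistar level. Of the 4 Ugt2 calls between the GK groups, that of Ugt2b5 alone held both with normexp background correction and with slide as a fixed block, and those of Ugt2a3 and Ugt2b37 were also lost on leaving out single arrays.

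**Figure D3:**
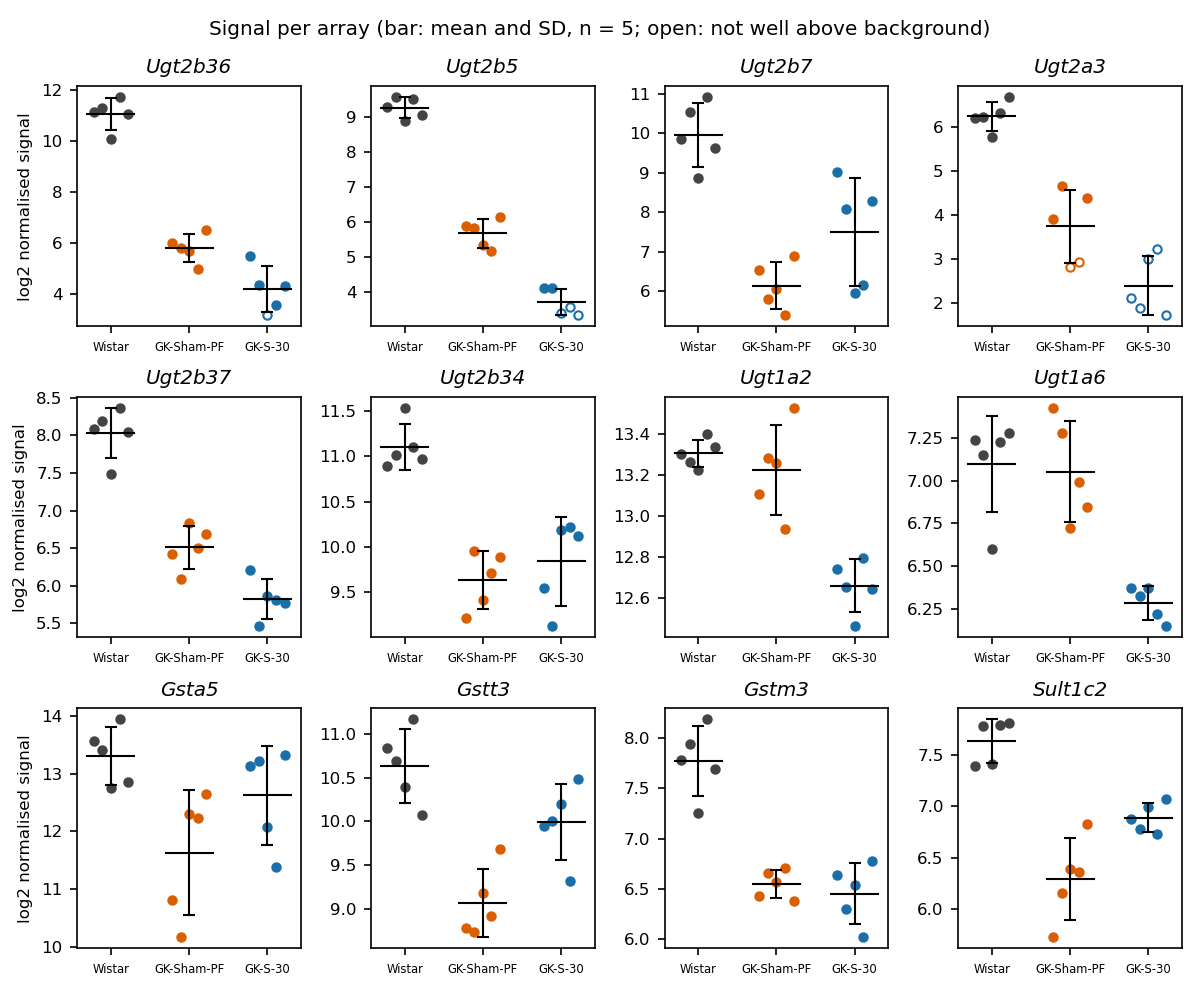
Log2 normalised signal of 12 members on each array, by group, with the mean and SD of 5 arrays as black bars and open circles for arrays on which the probe was not well above background; vertical scales differ between panels. Ugt2b36 and Ugt2b5 step down from Wistar to GK-Sham-PF to GK-S-30 rats, Ugt1a2 and Ugt1a6 are low in GK-S-30 rats only, and Gstt3 and Sult1c2 are lowest in GK-Sham-PF rats.

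**Figure D4:**
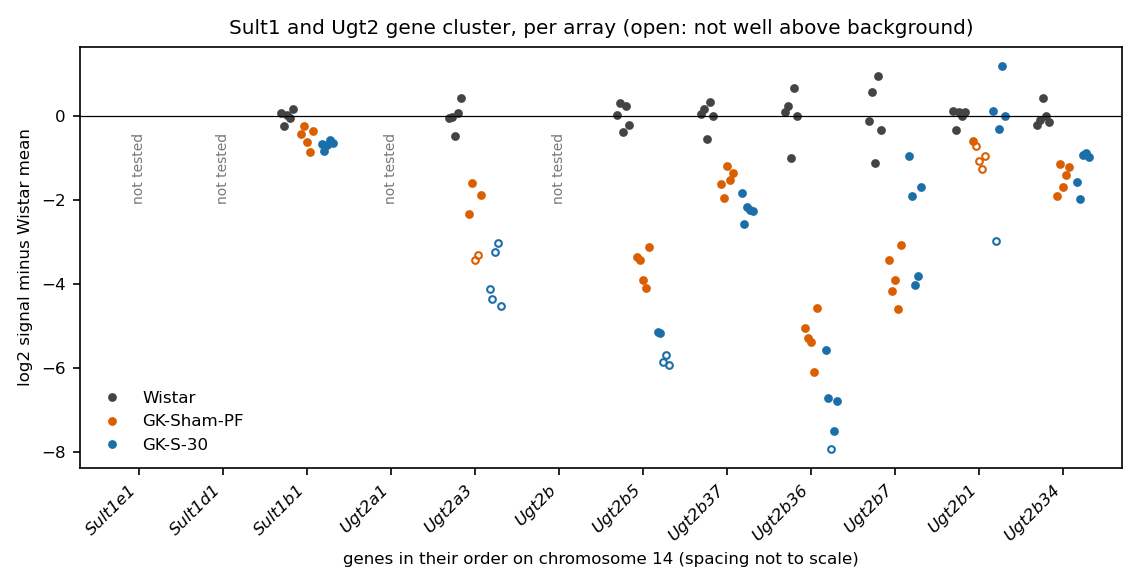
Signal of the Sult1 and Ugt2 genes of chromosome 14 on each array as log2 difference from the Wistar mean, with genes in the order of their probes, spacing not to scale, and open circles where the probe was not well above background. Differences among neighbours run from -0.49 for Sult1b1 to -5.28 for Ugt2b36 between GK-Sham-PF and Wistar rats.

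Along the cluster the size of the difference between GK-Sham-PF and Wistar rats changed from gene to gene. From the Sult1 end it was -0.49 for Sult1b1, -2.50 for Ugt2a3, -3.58 for Ugt2b5, -1.52 for Ugt2b37, -5.28 for Ugt2b36, -3.83 for Ugt2b7, -0.91 for Ugt2b1 and -1.47 for Ugt2b34. Ugt2b1 was not called and the other 7 were. Ugt2a3 and Ugt2b1 were tested only because all Wistar arrays read them above background, a filter that favours a lower value in GK rats. The same holds for the second Ugt2b37 probe.

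The RefSeq promoter windows of these genes (build GRCr8, 250 bases before to 50 after the start) were searched on both strands for short core motifs of 4 factors or factor groups that act on phase II genes. The hepatic and intestinal factors HNF1 (GTTAAT) and HNF4 (CAAAGTCC), the aryl hydrocarbon receptor (GCGTG) and NRF2 (TGACNNNGC) were chosen, and 41 members have a window. Members were counted by gene, with a match in any window of the gene, while the percentages are by window. A gene can have several windows, as Gsta5 has, so these counts and percentages are not directly comparable. GTTAAT was found in 9 members and in 7.45% of all 33469 windows. The 9 include all 3 tested Ugt1 genes, Ugt2a3 and Ugt2b34. CAAAGTCC was found in 3 members, Ugt2b, Ugt2b36 and Ugt2b7, and in 1.40% of all windows. GCGTG was found in 9 members (29.7% of all windows) and TGACNNNGC in 6, all GST genes (12.1%). A match is a description of the letters and not a site of binding. The stretches from 70 bases before to 30 after the start are shown for 1 Ugt2a and 1 Ugt2b gene, plus strand, with the matches of either strand in capitals.

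Ugt2a3, chr14:20851900-20851999, GTTAAT: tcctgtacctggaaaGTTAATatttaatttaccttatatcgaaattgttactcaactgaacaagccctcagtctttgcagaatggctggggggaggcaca
Ugt2b7, chr14:21251465-21251564, CAAAGTCC on the minus strand: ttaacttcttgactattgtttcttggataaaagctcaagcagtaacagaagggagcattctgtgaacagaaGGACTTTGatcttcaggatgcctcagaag

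The same stretch of Ugt2b36 was identical to that of Ugt2b7 at 80 of 97 aligned bases (82.5%).

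Of the Ugt1 genes, Ugt1a2 and Ugt1a6 were called and Ugt1a1 was not. In GK-Sham-PF against Wistar rats none of the 3 tested passed, and both called genes were lower in GK-S-30 rats than in the other groups. The Ugt1 locus on chromosome 9 has a row of alternative first exons joined to shared last exons, and in GRCr8 Ugt1a6, Ugt1a2 and Ugt1a1 all end at 96256264. The probes named Ugt1a2 lie at chr9:87095044-87095103 and chr9:87097940-87097999 in rn4, downstream of the Ugt1a1 probe at chr9:87092066-87092125, so their signal cannot be assigned to 1 Ugt1 transcript.

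For the probe named Ugt1a2, log2 signals were 13.30, 13.26, 13.22, 13.40 and 13.34 in the Wistar rats, 13.11, 13.28, 13.26, 12.93 and 13.53 in the GK-Sham-PF rats and 12.74, 12.65, 12.46, 12.79 and 12.64 in the GK-S-30 rats. The GK-S-30 arrays lay below every array of both other groups, which overlapped each other. The differences were -0.56 (SE 0.10, adjusted p = 0.00382) from GK-Sham-PF and -0.65 (SE 0.10, adjusted p = 0.000352) from Wistar rats, with -0.53 within slide C, and the second Ugt1a2 probe gave -0.69 (SE 0.11, adjusted p = 0.00193) and -0.81 (SE 0.11, adjusted p = 0.000125). For Ugt1a6, the isoform for planar phenols, log2 signals were 7.24, 7.15, 6.60, 7.23 and 7.27 in the Wistar rats, 7.42, 7.28, 6.72, 6.99 and 6.84 in the GK-Sham-PF rats and 6.37, 6.33, 6.37, 6.22 and 6.15 in the GK-S-30 rats. Its 5 GK-S-30 arrays too lay below all Wistar and all GK-Sham-PF arrays. The differences were -0.76 (SE 0.15, adjusted p = 0.00527) from GK-Sham-PF and -0.81 (SE 0.15, adjusted p = 0.00102) from Wistar rats, with -0.57 within slide C. Ugt1a1, the bilirubin-conjugating isoform, was not called, with a log2 fold change of 0.15 (95% confidence interval -0.20 to 0.49) between the GK groups. Whether Ugt1a1 and Ugt1a6 changed unequally was not tested. These falls of about 1.48-fold and 1.7-fold go with a rise of smooth muscle genes in the same rats. The summed epithelial signal overlapped between the groups, but the brightest genes weigh most in that sum, so it is a coarse measure of epithelial content. The part of either in these falls was not tested.

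Of the GSTs other than the membrane class, 18 were tested. Between GK-Sham-PF and Wistar rats 6 were lower and 1 was higher, between the GK groups 2 were lower and 1 was higher, and between GK-S-30 and Wistar rats 6 were lower and 1 was higher. The medians of the 18 log2 fold changes were -0.29, -0.05 and -0.47.

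In the alpha class, which conjugates lipid peroxidation products and reduces organic hydroperoxides, Gsta4 and Gsta5 were lower in GK-Sham-PF than in Wistar rats, and in GK-S-30 rats Gsta2, Gsta3 and Gsta4 lay below Wistar rats. Gsta4, the enzyme for 4-hydroxynonenal-type aldehydes, read 11.70, 11.76, 11.12, 11.80 and 11.54 in the Wistar rats, 11.01, 11.11, 10.97, 10.81 and 10.72 in the GK-Sham-PF rats and 10.95, 10.42, 10.92, 10.50 and 10.82 in the GK-S-30 rats. All GK arrays lay below all Wistar arrays. The differences were -0.66 (SE 0.14, adjusted p = 0.00797) and -0.86 (SE 0.14, adjusted p = 0.000471), with -0.67 within slide B. Gsta5 was the most variable of the class. Its log2 signals were 13.56, 13.41, 12.76, 13.95 and 12.85 in the Wistar rats, 10.81, 10.16, 12.29, 12.22 and 12.65 in the GK-Sham-PF rats and 13.13, 13.22, 12.07, 11.39 and 13.32 in the GK-S-30 rats. GK-Sham-PF arrays lay below the Wistar arrays, with replicates 1 and 2 lowest, and GK-S-30 arrays spread over both ranges. The difference between GK-Sham-PF and Wistar rats was -1.68 (SE 0.48, adjusted p = 0.0419), with -2.47 within slide B, and the difference of the GK groups, 1.00 (SE 0.48, adjusted p = 0.224), did not pass. The call was lost when any of 6 single arrays was left out. Gsta3 read 11.61, 9.68, 10.75, 11.09 and 11.51 in the Wistar rats, 10.25, 10.26, 10.06, 10.20 and 10.06 in the GK-Sham-PF rats and 9.20, 9.68, 10.08, 9.90 and 10.00 in the GK-S-30 rats. Wistar replicate 2 lay among the GK-S-30 arrays and the other Wistar arrays lay above them. Gsta3 and Gsta2 differed between GK-S-30 and Wistar rats by -1.15 (SE 0.29, adjusted p = 0.00804) and -0.66 (SE 0.23, adjusted p = 0.0436). The second Gsta2 probe gave -0.19 (SE 0.26, adjusted p = 0.641), and the Gsta2 call was lost when any of 10 single arrays was left out.

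The mu class, which handles epoxides and quinones and lies in 1 cluster on chromosome 2, moved in both directions. Gstm3 read 7.78, 7.94, 7.25, 8.19 and 7.69 in the Wistar rats, 6.43, 6.66, 6.56, 6.71 and 6.38 in the GK-Sham-PF rats and 6.64, 6.29, 6.54, 6.01 and 6.77 in the GK-S-30 rats. All GK arrays lay below all Wistar arrays, and the GK groups overlapped. The differences were -1.23 (SE 0.17, adjusted p = 0.000166) in GK-Sham-PF and -1.32 (SE 0.17, adjusted p = 4.53e-05) in GK-S-30 rats against Wistar rats. Gstm5 read 9.08, 8.97, 9.03, 9.13 and 9.19 in the Wistar rats, 8.19, 8.46, 8.36, 8.26 and 8.0 in the GK-Sham-PF rats and 8.01, 8.35, 8.59, 8.46 and 8.34 in the GK-S-30 rats. Here, too, GK and Wistar arrays did not overlap, with differences of -0.83 (SE 0.11, adjusted p = 0.000152) and -0.73 (SE 0.11, adjusted p = 0.00022).

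Among calls on the brightest probes, Gstm4 was the only member higher in GK than in Wistar rats. It read 8.71, 9.02, 8.95, 9.04 and 8.47 in the Wistar rats, 9.58, 9.38, 9.81, 9.34 and 10.15 in the GK-Sham-PF rats and 9.66, 9.86, 9.15, 9.62 and 9.54 in the GK-S-30 rats. Every GK array exceeded every Wistar array, by 0.81 (SE 0.17, adjusted p = 0.006) on average in GK-Sham-PF and by 0.73 (SE 0.17, adjusted p = 0.00553) in GK-S-30 rats. Within slide B, Gstm3, Gstm5 and Gstm4 differed by -1.23, -0.75 and 0.88. Gstm6l was not called in GK-Sham-PF against Wistar rats (0.02, 95% confidence interval -0.27 to 0.32) and was low in GK-S-30 rats. Its log2 signals were 7.84, 7.83, 7.93, 7.91 and 7.77 in the Wistar rats, 7.76, 8.06, 8.07, 7.59 and 7.91 in the GK-Sham-PF rats and 6.67, 7.38, 7.03, 7.16 and 7.48 in the GK-S-30 rats. The highest GK-S-30 array lay below the lowest array of both other groups. The differences were -0.73 (SE 0.14, adjusted p = 0.00445) from GK-Sham-PF and -0.71 (SE 0.14, adjusted p = 0.00164) from Wistar rats, with -0.72 within slide C. The GST mu genes are close relatives, and signal shared between their transcripts was not tested.

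Among the pi, theta, omega and kappa classes, 3 members were called. Gstt3, a theta-class enzyme, read 10.84, 10.69, 10.39, 11.17 and 10.07 in the Wistar rats, 8.79, 8.74, 9.19, 8.93 and 9.69 in the GK-Sham-PF rats and 9.95, 10.00, 10.20, 9.32 and 10.48 in the GK-S-30 rats. The GK-Sham-PF arrays lay below all Wistar arrays, and 4 of the 5 GK-S-30 arrays lay above all GK-Sham-PF arrays. The differences were -1.56 (SE 0.24, adjusted p = 0.000501) for GK-Sham-PF against Wistar and 0.92 (SE 0.24, adjusted p = 0.0258) between the GK groups, with -1.93 and 0.67 within slides B and C. GK-S-30 and Wistar rats differed by -0.64 (SE 0.24, adjusted p = 0.0624), which did not pass. The rise between the GK groups was lost when any of 5 single arrays was left out. Gsto2, an omega-class enzyme that reduces dehydroascorbate, read 4.52, 4.26, 4.14, 4.58 and 4.52 in the Wistar rats, 4.62, 4.97, 4.78, 4.94 and 4.37 in the GK-Sham-PF rats and 3.51, 3.03, 4.41, 4.12 and 4.11 in the GK-S-30 rats. GK-S-30 rats were lower than GK-Sham-PF rats by -0.90 (SE 0.22, adjusted p = 0.017), with -1.39 within slide C, replicate 2 was not well above background and replicate 3 lay within the GK-Sham-PF range. The call was lost with normexp background correction and with Tukey's test adjusted over genes. Gstp1, the pi-class enzyme of most epithelia, was lower in GK-Sham-PF than in Wistar rats by -0.50 (SE 0.14, adjusted p = 0.0304), with overlapping arrays and -0.51 within slide B, and its second probe gave -0.52 (SE 0.15, adjusted p = 0.0433). The call was lost when any of 7 single arrays was left out.

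The membrane GSTs, which act as peroxidases and in leukotriene synthesis, showed 1 call: Mgst2 was lower in GK-S-30 than in Wistar rats by -0.36 (SE 0.12, adjusted p = 0.0437), a call lost when any of 11 single arrays was left out. The probes of Mgst3 and of the theta-class gene Gstt2 disagreed on a call. The second Mgst3 probe was higher in GK-Sham-PF than in Wistar rats by 0.43 (SE 0.08, adjusted p = 0.00445) where the brightest gave 0.17 (SE 0.10, adjusted p = 0.356), and the second Gstt2 probe gave 0.39 (SE 0.11, adjusted p = 0.046) where the brightest gave 0.24 (SE 0.12, adjusted p = 0.289). In GK-S-30 against Wistar rats these second probes were higher too, by 0.38 (SE 0.08, adjusted p = 0.00442) and 0.42 (SE 0.11, adjusted p = 0.0127). The brightest probes gave 0.09 and 0.16 there and were not called.

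Of 13 SULT genes 7 were tested. Between GK-Sham-PF and Wistar rats 2 were lower, between the GK groups 1 was higher, and between GK-S-30 and Wistar rats 2 were lower. Sult1c2, a phenol sulfotransferase, was called in all 3 comparisons. Its log2 signals were 7.39, 7.78, 7.41, 7.78 and 7.80 in the Wistar rats, 5.72, 6.16, 6.39, 6.36 and 6.83 in the GK-Sham-PF rats and 6.87, 6.78, 7.0, 6.72 and 7.07 in the GK-S-30 rats. Both GK groups lay below all Wistar arrays, and the GK-S-30 arrays lay above 4 of the 5 GK-Sham-PF arrays. The differences were -1.34 (SE 0.17, adjusted p = 6.39e-05) for GK-Sham-PF against Wistar, 0.59 (SE 0.17, adjusted p = 0.0355) between the GK groups and -0.75 (SE 0.17, adjusted p = 0.00402) for GK-S-30 against Wistar rats. Within slides B and C they were -1.30 and 0.23. The rise between the GK groups was lost when any of 7 single arrays was left out. The second Sult1c2 probe was above background on all Wistar arrays, on no GK-Sham-PF array and on 1 GK-S-30 array, so GK-Sham-PF rats were at least 2.22-fold below Wistar rats on it. This probe, too, passed the filter only through the Wistar arrays, which favours a lower value in GK rats.

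Sult1b1, which sulfates phenols and thyroid hormones and is the Sult1 gene next to the Ugt2 cluster that was expressed here, read 13.63, 13.32, 13.59, 13.52 and 13.74 in the Wistar rats, 13.14, 13.34, 12.95, 12.71 and 13.21 in the GK-Sham-PF rats and 12.90, 12.72, 12.88, 12.99 and 12.92 in the GK-S-30 rats. The GK-S-30 arrays lay below all Wistar arrays, and 1 GK-Sham-PF array, replicate 2, lay just within the Wistar range. The differences from Wistar rats were -0.49 (SE 0.12, adjusted p = 0.0137) in GK-Sham-PF and -0.68 (SE 0.12, adjusted p = 0.000578) in GK-S-30 rats, with -0.48 within slide B, and the second probe gave -0.46 (SE 0.12, adjusted p = 0.0217) and -0.73 (SE 0.12, adjusted p = 0.000327). Sult1c2a, a close relative of Sult1c2, was not called on its brightest probe, with 0.50 (SE 0.15, adjusted p = 0.0521) between the GK groups and -0.08 (SE 0.15, adjusted p = 0.844) between GK-Sham-PF and Wistar rats. Its second probe was higher in GK-Sham-PF than in Wistar rats, by 0.88 (SE 0.24, adjusted p = 0.0316). In GK-S-30 against Wistar rats the second probe gave 1.21 (SE 0.24, adjusted p = 0.00177) and the brightest 0.42 (SE 0.15, adjusted p = 0.0538), so the probes disagreed in both comparisons.

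**Figure D5:**
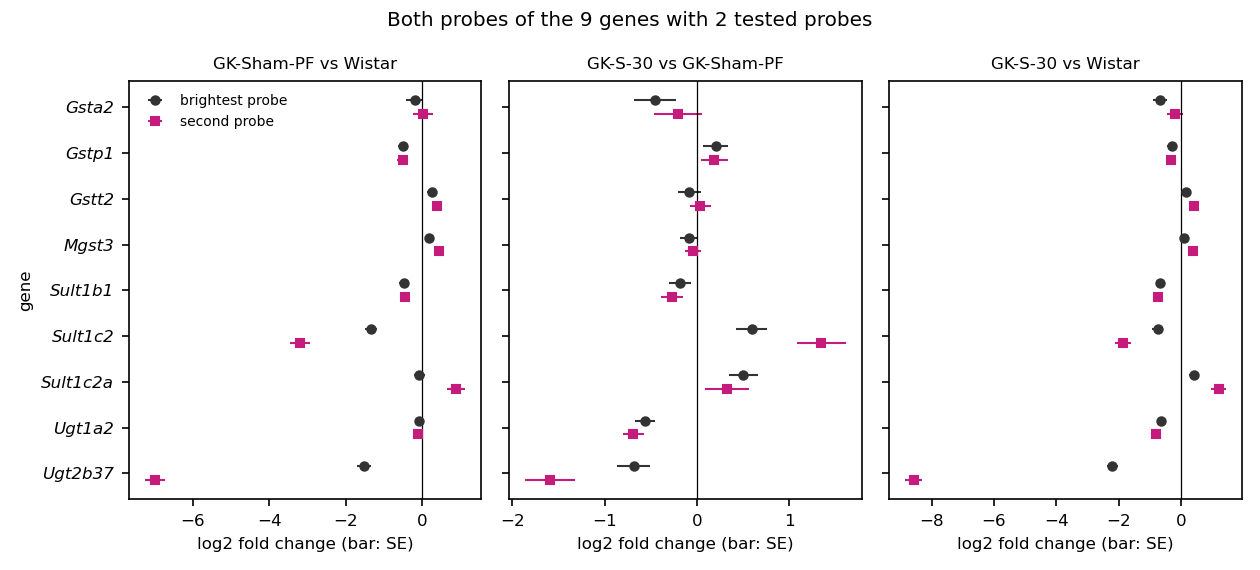
Log2 fold change with its SE for both probes of the 9 members with 2 tested probes, in the 3 comparisons, with dots for the brightest and squares for the second probe; the horizontal scales differ between panels. The probes lie close together for Gstp1, Sult1b1 and Ugt1a2 and far apart for Ugt2b37, at -1.52 and -6.98 between GK-Sham-PF and Wistar rats.

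Of the 38 tested members, 22 were called in at least 1 comparison and 16 in none. The uncalled log2 fold changes ranged from -0.91 to 0.33 between GK-Sham-PF and Wistar rats, from -0.46 to 1.36 between the GK groups and from -0.68 to 0.42 between GK-S-30 and Wistar rats, with 95% confidence limits as far as -2.02 and 2.55.

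Genes that supply or surround conjugation were taken from 8 lists, of which 76 of 91 genes were tested. Between GK-Sham-PF and Wistar rats 7 differed (9.21%), all lower in GK-Sham-PF rats, between the GK groups 7 differed (9.21%), 4 higher and 3 lower, and between GK-S-30 and Wistar rats 25 differed (32.9%), 11 higher and 14 lower. The share of calls among all genes was 8.83%, 9.65% and 26.2%. The median log2 fold changes of the 76 genes were -0.09, 0.09 and -0.04.

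Of the 4 genes for supply of UDP-glucuronic acid, the sugar donor of UGTs, none was called in either comparison with GK-Sham-PF rats. Ugp2, which makes UDP-glucose, was higher in GK-S-30 than in Wistar rats by 0.25 (SE 0.08, adjusted p = 0.0238). Of 8 genes for sulfate supply, 1 was called: Slc26a1, a sulfate-anion exchanger, read 4.29, 4.66, 3.30, 4.59 and 4.54 in the Wistar rats, 3.28, 3.66, 3.85, 3.19 and 3.78 in the GK-Sham-PF rats and 5.23, 5.05, 5.19, 5.17 and 4.83 in the GK-S-30 rats. Every GK-S-30 array exceeded every array of the other groups, with differences of 1.55 (SE 0.22, adjusted p = 0.000615) from GK-Sham-PF and 0.82 (SE 0.22, adjusted p = 0.0136) from Wistar rats. The GK-Sham-PF signals lie at or below levels at which the Ugt2b5 probe was above background on only some GK-S-30 arrays. The size of the difference from GK-Sham-PF rats is therefore uncertain.

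Of 11 tested genes of glutathione supply and breakdown, 2 were higher after RYGB than after sham operation. Gclc, the catalytic subunit of the first step of glutathione synthesis, differed by 1.14 (SE 0.29, adjusted p = 0.0244), and Ggt1, which splits the gamma-glutamyl bond of extracellular glutathione, by 1.10 (SE 0.25, adjusted p = 0.0143), both with overlapping arrays. Ggt5 was lower in GK-Sham-PF than in Wistar rats by -0.54 (SE 0.14, adjusted p = 0.0261) and Ggt7 was higher in GK-S-30 than in Wistar rats by 0.24 (SE 0.08, adjusted p = 0.0357).

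Among 9 tested genes of other conjugations, Nat1 and Nat2, the arylamine acetyltransferases, and Tpmt, which methylates thiopurines, were lower in GK-Sham-PF than in Wistar rats by -0.50 (SE 0.13, adjusted p = 0.0264), -0.39 (SE 0.11, adjusted p = 0.0373) and -0.30 (SE 0.08, adjusted p = 0.0388). Between the GK groups, Hnmt, which methylates histamine, was higher by 0.83 (SE 0.23, adjusted p = 0.0331) and Inmt, which methylates indole amines, was lower by -1.51 (SE 0.25, adjusted p = 0.00165). Relative to Wistar rats, Gnmt, the glycine methyltransferase, was lower in GK-S-30 rats by -1.23 (SE 0.25, adjusted p = 0.00183), Inmt and Nat2 were lower by -1.64 and -0.41, and Hnmt was higher by 0.97.

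The list of 6 tested hydrolases held the largest difference of any supporting gene. Ephx2, the soluble epoxide hydrolase, read 9.45, 9.74, 9.46, 9.46 and 9.24 in the Wistar rats, 5.76, 5.97, 6.44, 6.14 and 5.75 in the GK-Sham-PF rats and 4.79, 4.85, 5.33, 4.62 and 5.21 in the GK-S-30 rats. No group overlapped another. The differences were -3.46 (SE 0.16, adjusted p = 9.13e-10) for GK-Sham-PF against Wistar and -1.05 (SE 0.16, adjusted p = 0.000867) between the GK groups. Ephx1, the microsomal enzyme, was lower in GK-Sham-PF than in Wistar rats by -0.82 (SE 0.16, adjusted p = 0.00285). Against Wistar rats, Ephx2 and Ephx1 were lower in GK-S-30 rats by -4.51 and -0.99. Epoxide hydrolases act beside the GSTs on epoxides and do not remove conjugates. Of the other hydrolases of the list, none was called in either comparison with GK-Sham-PF rats. From Wistar to GK-S-30 rats the beta-glucuronidase gene Gusb differed by 0.39 (SE 0.13, adjusted p = 0.0352), the sulfatase gene Arsb by 0.39 (SE 0.11, adjusted p = 0.0152) and the steroid sulfatase gene Sts by -0.32 (SE 0.08, adjusted p = 0.00959).

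Among 11 efflux transporter genes, Abcc6 was lower in GK-S-30 rats than in both other groups, by -0.85 (SE 0.16, adjusted p = 0.00349) and -1.08 (SE 0.16, adjusted p = 0.000139), and none was called in GK-Sham-PF against Wistar rats. Against Wistar rats, Abcc3, a basolateral exporter of glucuronides, and Slc51b, a subunit of the basolateral bile acid and steroid transporter, were higher in GK-S-30 rats by 0.62 (SE 0.17, adjusted p = 0.0158) and 0.65 (SE 0.17, adjusted p = 0.0123).

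Of 23 listed regulators of phase II genes 20 were tested, and Ahr, Ahrr and Foxa1 were not. Of the 20, none was called between the GK groups and 1 between GK-Sham-PF and Wistar rats. Nr1i3, the xenobiotic receptor CAR, was lower there by -0.78 (SE 0.18, adjusted p = 0.0123). Between GK-S-30 and Wistar rats 7 were called: Nr1i3, Nr1i2 (the xenobiotic receptor PXR), Nfe2l2 (NRF2), Ppara, Mafk and Foxa2 were lower and Cdx1 was higher. The values were -0.57 (SE 0.14, adjusted p = 0.00676) for Nr1i2, -0.39 (SE 0.10, adjusted p = 0.008) for Nfe2l2 and -0.77 (SE 0.19, adjusted p = 0.00813) for Ppara, and -0.78, -0.50, -0.31 and 0.26 for Nr1i3, Mafk, Foxa2 and Cdx1. Of 7 tested targets of AHR and NRF2 outside phase II, none was called in either comparison with GK-Sham-PF rats, and between GK-S-30 and Wistar rats Hmox1 and Srxn1 were higher by 1.09 and 0.71 and Aldh3a1 was lower by -0.33.

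Markers of other cells that the segment could hold moved with the groups in part. Between GK-Sham-PF and Wistar rats no goblet (4 tested), enteroendocrine (7), Paneth (2), gastric (3) or proliferation gene (4) was called, while 2 of 5 immune, 1 of 4 mast cell, 1 of 3 pancreatic acinar and 1 of 5 liver genes were. The liver gene was Serpina1, at -0.75 (SE 0.16, adjusted p = 0.00651), and the pancreatic gene Amy2a3, at 4.12 (SE 0.57, adjusted p = 0.00019). Between the GK groups 1 goblet, 4 enteroendocrine, 1 immune and 1 mast cell gene were called and no Paneth, pancreatic, gastric, liver or proliferation gene. Between GK-S-30 and Wistar rats 3 goblet, 2 enteroendocrine, 1 Paneth, 4 immune, 2 pancreatic and 2 liver genes were called. Their part in the differences of the phase II genes was not tested.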

How the data were processed

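Each array was read with Agilent Feature Extraction (version 10.7 in the submitters' processing notes), and the authors deposited its intensity values: a background-subtracted processed signal, not normalised between arrays. A deposited series matrix holds log2 values that the authors quantile-normalised in GeneSpring. Control and outlier spots were left out. Log2 processed signals were quantile-normalised and fitted with limma 3.58.1 in R 4.3.3 (lmFit, eBayes; 1 factor with 3 groups over 15 arrays). A probe was tested if all 5 arrays of any group read it well above background, and the brightest tested probe stood for its gene. Benjamini-Hochberg adjustment ran over 13024 genes. Values of second probes came from a separate limma fit of all tested probes, adjusted over 17029 probes, so their adjusted p differ slightly in basis from those of brightest probes. Log2 fold changes had a median standard error of 0.15, and the number of arrays limits the precision. Alternatives covered scaling, background correction, probe filters, slide, replicate number, Tukey's test and each array left out. Second probes and differences within slides were added after seeing the data. The procedure was tested on simulated data. Members, lists and motifs were chosen with earlier results of these data known. Named are members called or not overlapping between groups, and called genes of the 8 supporting lists, with cell type markers given mainly by counts; per-array values are printed for members called in more than 1 comparison or among the 8 largest.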

Additional observations from a re-analysis of the deposited data

Results flagged for a closer look

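In 4 of 114 sets of 5 arrays (38 members in 3 groups), 1 array lay apart from the other four by more than Dixon's 95% limit. Chance alone gives about 1 in 20. Log2 signals are given. Ugt1a6 in Wistar replicate 3 read 6.60 where the others read 7.15 to 7.27, and Gstm1 in GK-Sham-PF replicate 5 read 8.45 where the others read 8.93 to 9.12; these are the 2 dimmer arrays. Sult2b1, which sulfates cholesterol, read 12.88 in GK-Sham-PF replicate 1 against 12.64 to 12.70. Ugt2b1 read 3.80 in Wistar replicate 2 against 4.13 to 4.26. Of these 4 genes, Ugt1a6 was called in 2 comparisons, and both calls held without Wistar replicate 3.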

How the results depend on the processing

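The 43 calls of members in the 3 comparisons reversed under none of the alternatives run. With probes required above background on all arrays 10 calls, those of Ugt2a3, Ugt2b5, Ugt2b36 and Gsto2, could not be tested. Of the 43, 10 stayed called under every alternative that could be run for them: Ugt2b5 in all 3 comparisons, Ugt2b36, Ugt2b37 and Ugt2b34 against Wistar in both GK groups and Sult1c2 between GK-Sham-PF and Wistar rats. Another 23 were lost only with slide as a fixed block, which left 2 members called between the GK groups, 5 between GK-Sham-PF and Wistar and 4 between GK-S-30 and Wistar rats, and 2 supporting genes in each comparison; over all genes 2.19%, 1.37% and 1.82% were then called. With normexp background correction 6 members were called between the GK groups (9.62% of all genes), where Ugt2b36, Ugt2b37, Ugt2a3 and Gsto2 were lost. With Tukey's test adjusted over genes 4 members were called between the GK groups, and 4, 3 and 16 supporting genes in the 3 comparisons, against 3.87%, 5.44% and 17.5% of all genes; without adjustment over genes, 15 supporting genes were called between the GK groups and 12 between GK-Sham-PF and Wistar rats, against 16.3% and 14.7%. Without the 2 dimmer arrays 10, 15 and 20 members and 12, 8 and 27 supporting genes were called, in the order GK groups, GK-Sham-PF against Wistar and GK-S-30 against Wistar, against 12.5%, 9.91% and 29.9% of all genes. The cause of these moves was not tested. With each array left out in turn, 6 to 11, 13 to 16 and 16 to 20 members and 5 to 9, 4 to 9 and 19 to 27 supporting genes were called, in that order; the 6 came without GK-S-30 replicate 5, and 4 supporting genes between GK-Sham-PF and Wistar rats came without Wistar replicate 2 or 5 or GK-Sham-PF replicate 2, 4 or 5. Calls of 8 members were lost on leaving out 1 array. Between the GK groups these were Gstt3 (0.80 to 0.89 without GK-Sham-PF replicate 1, 2 or 4 or GK-S-30 replicate 3 or 5), Sult1c2 (0.45 to 0.62 without GK-Sham-PF replicate 1, 2, 3 or 4 or GK-S-30 replicate 1, 3 or 5), Ugt2a3 (without replicate 1, 2 or 5 of either group) and Ugt2b37 (-0.67 to -0.59 without GK-Sham-PF replicate 3 or 5 or GK-S-30 replicate 2 or 5). In GK-Sham-PF against Wistar rats they were Gsta5 (-1.79 to -1.31 without Wistar replicate 1, 2, 4 or 5 or GK-Sham-PF replicate 1 or 2) and Gstp1 (-0.51 to -0.45 without Wistar replicate 1, 2, 3 or 4 or GK-Sham-PF replicate 2, 3 or 4), and between GK-S-30 and Wistar rats Gsta2 (-0.68 to -0.46) and Mgst2 (-0.37 to -0.28), each lost without any of 10 or 11 single arrays.

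Replicate numbers did not pair the arrays: deviations of same-numbered arrays correlated between -0.27 and 0.18, and 1 of 15 arrays was closest to its own number. With the replicate block 7, 13 and 16 members and 5, 5 and 19 supporting genes were called, against 6.82%, 6.56% and 22% of all genes. Probes near background, as for Ugt2a3, Ugt2b1, Ugt2b5 and Gsto2 in GK-S-30 rats, limit how low a level can be read, and 5 arrays in each group limit the rest.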
